A study of Chlorocebus sabaeus with 10 samples.

Results

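The proteasome subunit genes were the 44 genes, of 27985 in the deposited transcript table, whose symbol was PSM followed by a letter from A to G and a number. One of them, PSMC3IP, is a recombination factor that shares only the start of its name with the family, and it is kept apart. The other 43 were split into 17 genes of the catalytic core (PSMA and PSMB), 17 genes of the regulatory particle (PSMC and PSMD) and 9 genes of activators, an inhibitor and assembly chaperones (PSME, PSMF and PSMG). Each was listed with 1 transcript, and none had a fractional count in any animal. The symbols PSMA1, PSMB10, PSMC1, PSMD4 and PSMD9 were not found and were not analysed here. Liver of 10 female vervet monkeys (Chlorocebus sabaeus) was biopsied after 6 weeks of feeding, 5 animals receiving a high fructose (HFr) diet and 5 receiving chow. All 10 had been kept on chow before the study, and each animal gave 1 library of polyadenylated RNA. They were assigned to the diets so as to balance age and body weight. The mean age that the paper reports was nevertheless higher on the HFr diet, though not significantly.

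The proteasome is the main protease of the cytosol and nucleus and degrades proteins that carry a ubiquitin chain. Its core is a barrel of alpha and beta rings with the catalytic sites inside, and the regulatory particle on its ends recognizes ubiquitin, unfolds the substrate with a ring of ATPases and removes the chain with a deubiquitinase in its lid. Under interferon signaling the inducible catalytic subunits PSMB8, PSMB9 and PSMB10 take the places of PSMB5, PSMB6 and PSMB7 in newly built cores, and the PA28 activator made of PSME1 and PSME2 is induced with them. Liver has a high rate of protein turnover, and the subunit genes are known to be driven together by the transcription factor NFE2L1 when proteasome activity is limiting.

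No proteasome gene passed the test for a difference between the diets after adjustment, and the estimated differences were small. Of the 43 subunit genes, 37 passed the filter on low counts, 15 of the core, 16 of the regulatory particle and 6 of the activators and chaperones. In edgeR's quasi-likelihood fit no gene of the 37 had an adjusted p under 0.05, as was the case for 0% of the 7948 transcripts tested, and the smallest adjusted p among the 37 was 0.9996. An unadjusted p under 0.05 was reached by 1 of the 37, PSMD7, which was lower on the HFr diet, where 2.23% of all tested transcripts were lower and 2.06% higher at that threshold, 4.29% in all. No member had normalized counts that did not overlap between the diets, which held for 0.541% of all tested transcripts. Of the 37, 26 had a negative log2 fold change (HFr over chow) and 11 a positive one, where 50.2% of all tested transcripts were negative. The negative count was 22 of 37 with the equal-variance test on the deposited values and 25 or 26 under the other alternatives that kept all 37 genes and all animals. With the equal-variance test 43.4% of all tested transcripts were negative. The largest difference in either direction was that of PSMD1, at -0.39, so none of the 37 was over 0.5 on the log2 scale, a size passed by 9.2% of all tested transcripts. Fewer cells of a type and less RNA per cell cannot be told apart in these bulk samples.

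The 95% intervals show how large a diet difference remains possible for each gene. For 22 of the 37 genes the interval lay within a 1.5-fold change either way, as it did for 26.9% of all tested transcripts. For 36 of the 37 it lay within 2-fold, against 79.1% of all tested transcripts, and the exception was PSMD1, whose interval ran from -1.18 to 0.40. The standard deviation of log2 normalized counts between animals of the same diet had a median of 0.29 over the 37 genes and of 0.38 over all tested transcripts. It ranged from 0.15 for PSMD8, a lid subunit, to 0.71 for PSMD1, a scaffold subunit of the base.

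**Figure D1:**
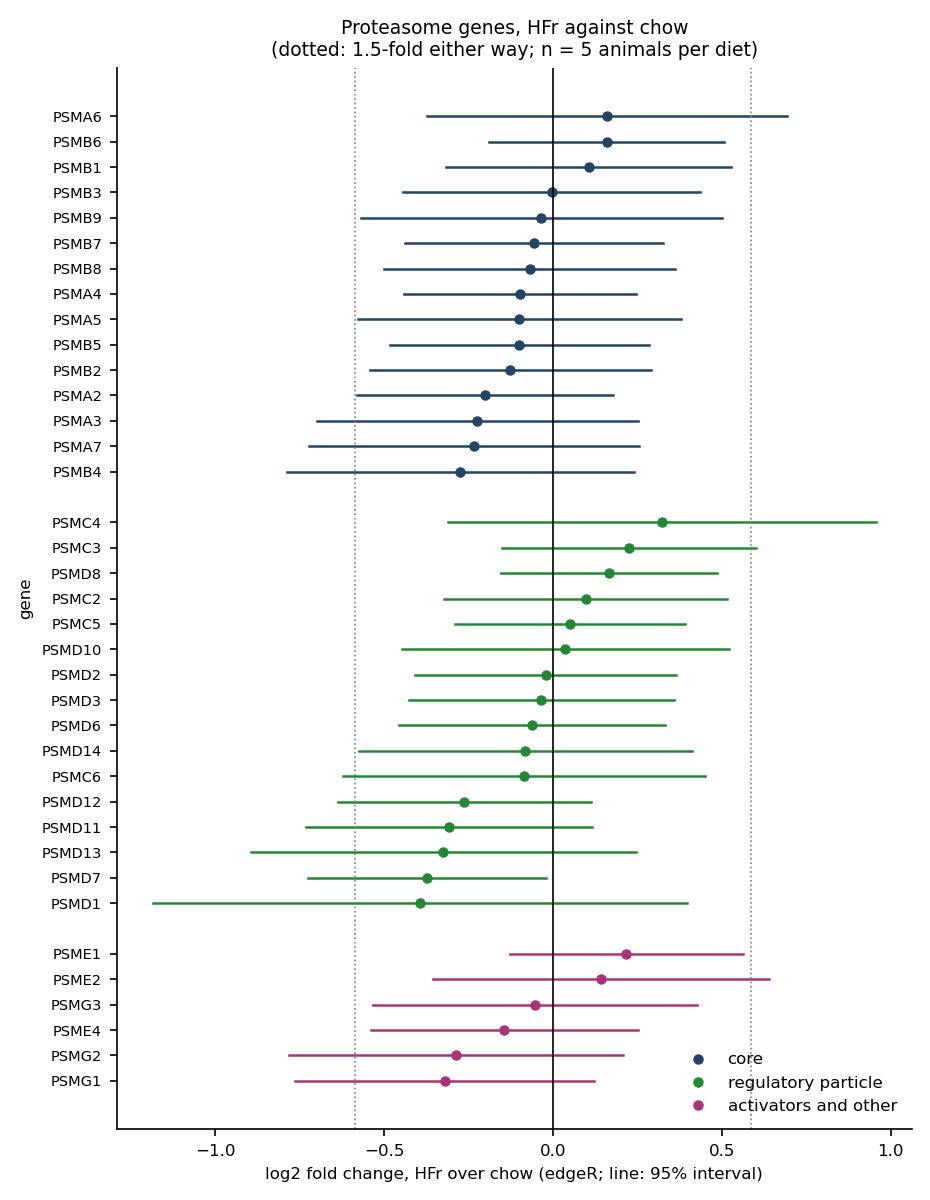
Log2 fold change (HFr over chow, x axis) of each of the 37 tested proteasome genes (y axis), ordered within the core, the regulatory particle and the activators and chaperones. Points are edgeR estimates from 5 animals per diet, lines are 95% intervals and dotted lines mark a 1.5-fold change. The interval of PSMD7 alone stays below 0, and that of PSMD1 is the widest.

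Depth on the nuclear transcripts that include these genes was limited. Total estimated counts ranged from 2977282 to 4992505 per animal, and 34.7% to 73.6% of them lay on mitochondrial transcripts. This percent varied widely within both diets. It was 61.6%, 41.8%, 67.8%, 62.2% and 44.0% in HFr animals 1 to 5 and 57.1%, 34.7%, 43.0%, 73.6% and 68.7% in chow animals 1 to 5. The 37 genes together held 3069 to 5475 counts per animal on the HFr diet and 2589 to 6715 on chow. Below, normalized counts are estimated counts scaled to library size with TMM factors (counts per 1e6, CPM). They were not divided by transcript length, so ranks and ratios of different genes below describe counts and not numbers of RNA molecules. All 10 hepatocyte markers, from albumin to the receptor gene ASGR1, were tested in these libraries. Their summed level was 47212 to 73549 CPM on the HFr diet and 38462 to 77658 CPM on chow. The largest part of it was albumin (ALB), with 21647 to 37815 CPM on the HFr diet and 22730 to 45270 CPM on chow. Of 19 leukocyte marker symbols 17 were in the table and 12 were tested. The summed level of the 17 was 398 to 526 CPM on the HFr diet and 367 to 550 CPM on chow. Most of this sum was CD14, with 246 to 317 CPM on the HFr diet and 242 to 306 CPM on chow. Other markers varied more between animals than the sum did, such as LYZ, with 17.6 to 94.8 CPM on the HFr diet and 19.1 to 105 CPM on chow. None of the 22 tested markers had an unadjusted p under 0.05 in edgeR. The smallest were 0.155 for the hepatocyte gene TF (transferrin, log2 fold change 0.37) and 0.197 for the macrophage gene CSF1R (log2 fold change 0.52), and the B cell markers CD79A and MS4A1 and the T cell marker CD8A had at most 4 counts each over all animals.

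The 15 tested core genes had a median log2 fold change of -0.10, with 12 negative and 3 positive, beside a median of -0.00075 over all tested transcripts. The core median was -0.035 with scaling by library size only, where that over all tested transcripts was -0.011. It was -0.050 with the equal-variance test on the deposited values, where that over all tested transcripts was 0.038. With 1 animal left out, the core median ranged from -0.19 without chow replicate 1 to -0.028 without HFr replicate 4. The summed level of the 15 genes was 469 ± 35.2 CPM (SD, n = 5) in HFr animals and 498 ± 73.1 CPM (SD, n = 5) in chow animals, a difference smaller than either standard deviation. By animal the sum was 457, 482, 520, 425 and 460 CPM on the HFr diet and 372, 523, 561, 529 and 507 CPM on chow. Chow replicate 1 was thus the lowest of all 10, and the other chow animals lay from 507 CPM upward. The core sum divided by the sum of the 16 regulatory particle genes was 1.01 ± 0.0883 (SD, n = 5) in HFr animals and 1.01 ± 0.122 (SD, n = 5) in chow animals.

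The alpha ring forms the gate of the barrel. Of its 6 tested genes 5 had negative log2 fold changes and 1, PSMA6, a positive one, all between -0.23 and 0.16. PSMA2, which lies at chr21:15672106-15687177 of ChlSab1.1, had both the highest mean normalized count and the smallest unadjusted p of the ring. Its normalized count was 33.2, 44.2, 38.7, 27.1 and 29.1 CPM in the HFr animals and 38.4, 37.9, 48.6, 36.9 and 35.4 CPM in the chow animals. The diets overlapped, with the highest value in chow replicate 3 and the lowest in HFr replicate 4, and the log2 fold change was -0.20 with a standard error (SE) of 0.18 (edgeR, unadjusted p = 0.272). PSMA8, which in other mammals replaces an alpha subunit in the testis, had 0 counts in all 10 animals. Scaled to total counts without the TMM factors, 3 counts would have been 0.601 to 1.01 CPM depending on the library. With the TMM factors, 3 counts were 0.550 CPM in chow replicate 3 and 1.52 CPM in chow replicate 4.

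The beta ring carries the proteolytic sites. Its 7 tested constitutive genes had log2 fold changes between -0.27 and 0.16, 5 of them negative. PSMB4, a non-catalytic subunit at chr20:12291070-12294311, had the highest normalized count and the smallest unadjusted p of these, with 35.8, 51.4, 72.6, 60.6 and 61.3 CPM in the HFr animals and 43.0, 71.4, 87.1, 88.9 and 50.6 CPM in the chow animals. Its values spread by more than 2-fold within each diet, and the log2 fold change was -0.27 (SE 0.24, edgeR, unadjusted p = 0.273).

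The catalytic genes are given in full because their exchange defines the immunoproteasome. PSMB5, the chymotrypsin-like subunit gene at chr29:23390401-23403658, had 28.6, 38.1, 30.3, 25.5 and 27.5 CPM on the HFr diet and 24.0, 37.7, 37.0, 27.8 and 34.0 CPM on chow. PSMB6, the caspase-like subunit gene at chr16:4272081-4274555, had 31.7, 37.9, 26.2, 29.1 and 29.5 CPM on the HFr diet and 22.4, 25.8, 30.6, 29.3 and 30.8 CPM on chow. PSMB7, the trypsin-like subunit gene at chr12:13728724-13793290, had 44.1, 46.0, 54.9, 41.3 and 52.0 CPM on the HFr diet and 36.6, 49.9, 46.2, 66.7 and 49.2 CPM on chow. In all 3 genes the diets overlapped, and the lowest value was that of chow replicate 1. Their log2 fold changes were -0.10 (SE 0.18) for PSMB5, 0.16 (SE 0.16) for PSMB6 and -0.06 (SE 0.18) for PSMB7, and none had an unadjusted p under 0.05 in edgeR.

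The inducible genes PSMB8 and PSMB9 showed no diet difference that could be detected. PSMB8, the inducible counterpart of PSMB5, had 26.4, 27.4, 29.9, 22.2 and 21.8 CPM on the HFr diet and 18.1, 26.7, 21.8, 35.4 and 33.1 CPM on chow. The chow animals spanned both the lowest and the highest of the 10 values, with replicates 4 and 5 high and replicate 1 low. PSMB9, the inducible counterpart of PSMB6, was carried by 19 to 38 counts per animal and had 8.29, 8.07, 10.9, 6.89 and 4.75 CPM on the HFr diet and 6.40, 7.67, 6.97, 9.60 and 9.19 CPM on chow. For this gene it was the HFr animals that spanned the whole range, from replicate 5 to replicate 3. The log2 fold change was -0.07 (95% interval -0.50 to 0.36) for PSMB8 and -0.03 (95% interval -0.57 to 0.50) for PSMB9. PSMB11, which in other mammals is expressed in the thymus, had 0 counts in all 10 animals. It lies 7898 bases from PSMB5 on chromosome 29.

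PSMB8 and PSMB9 sit beside TAP1, which encodes a subunit of the peptide transporter of antigen presentation. In the table PSMB9 (chr17:39245854-39251842, minus strand) lies 68 bases from TAP1, with the start of its transcript on the side of TAP1. PSMB8 (chr17:39260511-39265166, plus strand) lies wholly within the listed span of TAP1 on the same strand. Reads shared by PSMB8 and TAP1 would have been divided between them by the authors' expectation-maximization. TAP1 itself had 5.05 to 9.28 CPM over the 10 animals and a log2 fold change of 0.17 (SE 0.23).

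**Figure D2:**
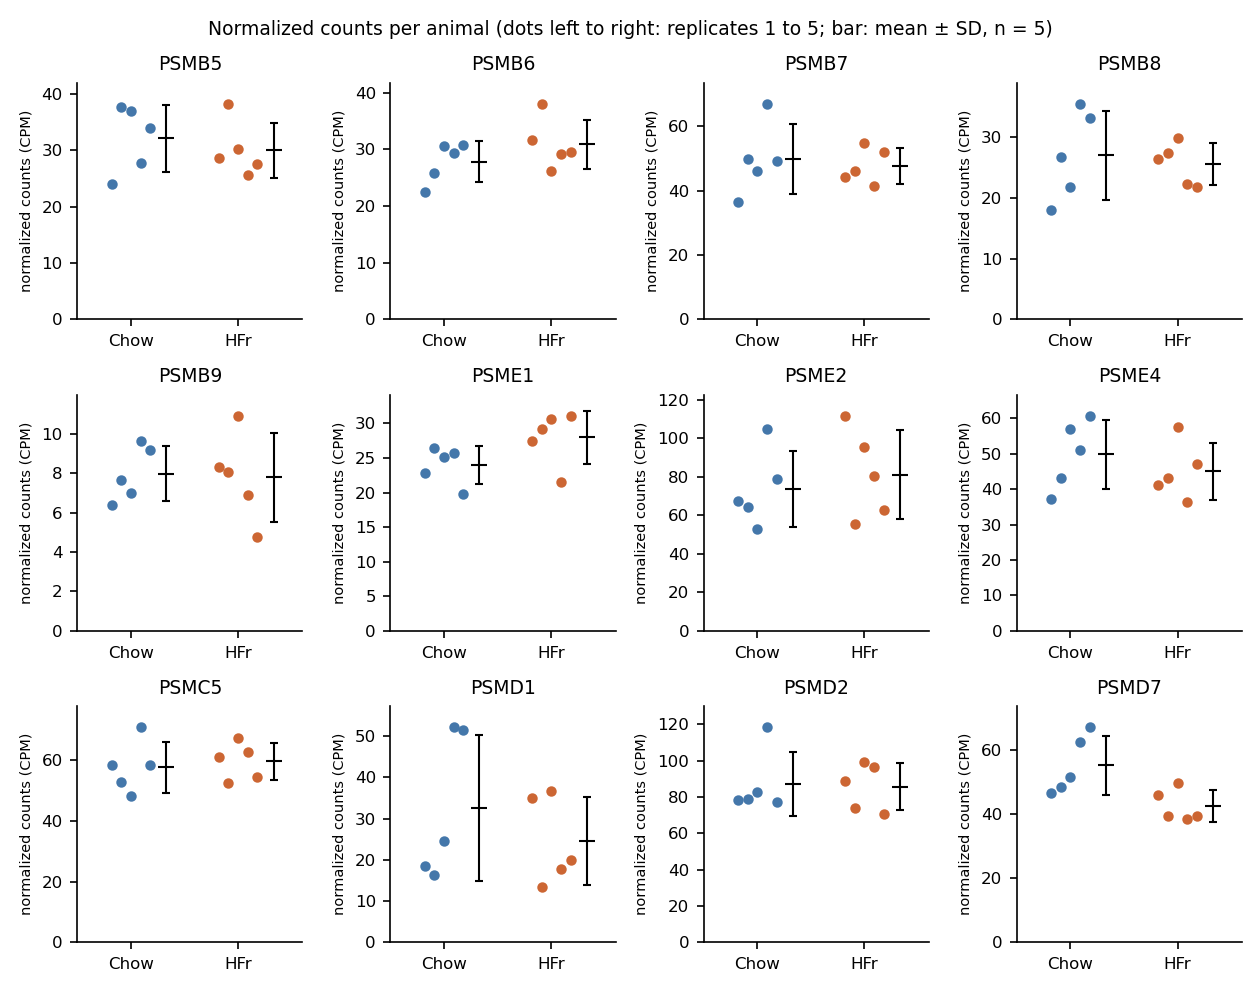
Normalized counts (CPM, y axis from 0) of 12 proteasome genes in each animal by diet (x axis); dots within a diet run from replicate 1 to 5, and the bar gives the mean and SD (n = 5). The diets overlap in every panel, PSMD7 is lower on the HFr diet in its mean, and PSMD1 separates into high and low animals within both diets.

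The ratio of an inducible gene to its constitutive counterpart within 1 library does not depend on the library scaling apart from the pseudocount of 0.5 CPM. The mean log2 ratio of PSMB8 to PSMB5 was -0.23 ± 0.18 (SD, n = 5) in HFr animals and -0.27 ± 0.43 (SD, n = 5) in chow animals. The difference, 0.04, had a 95% interval from -0.46 to 0.51 (two-sided exact permutation test, p = 0.881, adjusted p = 0.881 over 2 ratios). The chow animals ranged from -0.75 in replicate 3 to 0.34 in replicate 4, a wider span than the HFr animals. For PSMB9 to PSMB6 the mean log2 ratio was -1.96 ± 0.47 (SD, n = 5) in HFr animals and -1.75 ± 0.19 (SD, n = 5) in chow animals, a difference of -0.21 with an interval from -0.71 to 0.33 (exact permutation test, p = 0.421, adjusted p = 0.841). This value depended on single HFr animals. HFr replicate 3 was the highest of all 10 animals at -1.23, the other HFr animals lay between -2.51 and -1.87, and without replicate 3 the difference was -0.39 (exact permutation test, p = 0.0317, adjusted p = 0.0635). Without HFr replicate 5 it was -0.070 (exact permutation test, p = 0.746, adjusted p = 0.770). The third such ratio, with PSMB10, was not computed.

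**Figure D3:**
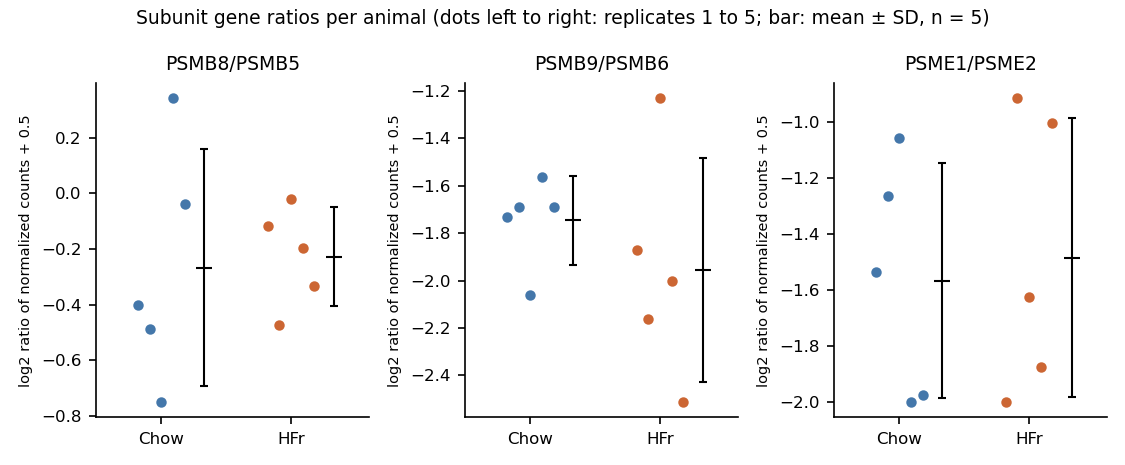
Log2 ratio of normalized counts plus 0.5 CPM (y axis) for PSMB8 over PSMB5, PSMB9 over PSMB6 and PSME1 over PSME2 in each animal by diet (x axis). Dots run from replicate 1 to 5 and bars give the mean and SD (n = 5); the mean difference between the diets is 0.04, -0.21 and 0.08, in each case less than the larger SD.

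The regulatory particle genes had a median log2 fold change of -0.05 over 16 tested genes, 10 negative and 6 positive. The median was slightly positive in 2 settings, at 0.0065 with the equal-variance test on the deposited values and at 0.0016 without chow replicate 4. Over all tested transcripts the median was 0.038 in the first of these settings and -0.0084 in the second. Their summed level was 467 ± 35.2 CPM (SD, n = 5) in HFr animals and 491 ± 49.6 CPM (SD, n = 5) in chow animals. By animal the sum was 488, 421, 513, 460 and 454 CPM on the HFr diet and 433, 457, 497, 562 and 506 CPM on chow, with chow replicate 4 the highest. The groups within the particle did not share a sign. Of the 5 tested ATPases of the base 4 had positive log2 fold changes, with a median of 0.10. With 1 animal left out, this median ranged from 0.050 without chow replicate 2 to 0.21 without chow replicate 3. Of the 8 tested lid genes 7 had negative log2 fold changes, with a median of -0.17, where 50.2% of all tested transcripts were negative. It was 5 of 8 with the equal-variance test on the deposited values. It was also 5 of 8 without chow replicate 3, with a median of -0.11. Whether the groups differed from each other was not tested.

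The ATPase gene with the highest normalized count was PSMC5 (chr16:57457720-57462249), with 61.0, 52.5, 67.4, 62.6 and 54.4 CPM on the HFr diet and 58.3, 52.8, 48.2, 70.8 and 58.4 CPM on chow. Its log2 fold change was 0.05 (SE 0.16), and the chow values enclosed the HFr values at both ends. The smallest unadjusted p of the ATPases was that of PSMC3 (chr1:17883824-17898451), with 39.6, 27.6, 33.9, 46.0 and 29.1 CPM on the HFr diet and 27.9, 35.0, 28.6, 30.3 and 28.5 CPM on chow. HFr replicates 1 and 4 stood above all chow animals and the other HFr animals did not, and the log2 fold change was 0.23 (SE 0.18, edgeR, unadjusted p = 0.219). It was 0.10 without HFr replicate 4 and 0.30 without HFr replicate 2. The listed span of PSMC3 overlaps RAPSN, a gene of the neuromuscular junction, on the same strand.

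Neither tested scaffold gene of the base had an unadjusted p under 0.05. PSMD2 (chr15:5110989-5121099), the ubiquitin-receptor scaffold subunit and the gene of this pair with more counts, had 88.6, 74.0, 99.2, 96.4 and 70.4 CPM on the HFr diet and 78.6, 78.8, 82.5, 118 and 77.2 CPM on chow. Chow replicate 4 stood above the other 9 animals, and the log2 fold change was -0.02 (SE 0.18). PSMD1 (chr10:117077881-117197586), the other scaffold, had 35.0, 13.5, 36.7, 17.8 and 19.98 CPM on the HFr diet and 18.5, 16.4, 24.6, 52.1 and 51.5 CPM on chow. Its values lay between 13.5 and 24.6 CPM in 6 animals and between 35.0 and 52.1 CPM in the other 4, with animals of both diets in each range. The log2 fold change was -0.39 (SE 0.37, edgeR, unadjusted p = 0.304), and it became -0.17 without chow replicate 5 and -0.59 without HFr replicate 3.

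PSMD7, a lid subunit that pairs with the deubiquitinase PSMD14, was the member with an unadjusted p under 0.05. It lies at chr5:57433472-57443337 and had 122 to 281 counts per animal. Its normalized count was 46.0, 39.5, 49.6, 38.4 and 39.6 CPM on the HFr diet and 46.6, 48.4, 51.5, 62.7 and 67.1 CPM on chow. All 5 HFr animals lay below the chow mean, but HFr replicate 3 lay above chow replicates 1 and 2, so the diets overlapped. The mean was 42.6 ± 4.92 CPM (SD, n = 5) in HFr animals and 55.3 ± 9.09 CPM (SD, n = 5) in chow animals, and the log2 fold change was -0.37 (SE 0.16, 95% interval -0.72 to -0.02, edgeR, unadjusted p = 0.0394, adjusted p = 0.9996). The unadjusted p was over 0.05 without any 1 of chow replicates 4 and 5 and HFr replicates 2, 4 and 5, with a range from 0.0273 to 0.103 over the 10 fits that leave out 1 animal, and the log2 fold change stayed between -0.44 and -0.30.

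The other lid genes did not pass the unadjusted threshold. PSMD11, PSMD12 and PSMD13 had log2 fold changes of -0.31 (SE 0.20), -0.26 (SE 0.18) and -0.33 (SE 0.27). PSMD11, a lid scaffold, had 17.6 to 31.3 CPM on the HFr diet and 27.8 to 43.2 CPM on chow, and all 5 HFr animals were below its chow mean. PSMD14, the deubiquitinase itself, had a log2 fold change of -0.08 (SE 0.23). PSMD8 was the only lid gene with a positive log2 fold change, 0.17 (SE 0.15), and all 5 HFr animals were above its chow mean. Among the assembly chaperones of the particle, PSMD10 (chrX:95931466-95939218) had 10.2, 10.8, 11.3, 6.89 and 9.30 CPM on the HFr diet and 7.31, 7.88, 9.17, 10.1 and 13.3 CPM on chow. The diets overlapped, with chow replicate 5 highest and HFr replicate 4 lowest, and the log2 fold change was 0.04 (SE 0.23). PSMD5, another of these chaperones, had 0 to 4 counts per animal and was not tested after the filter.

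The activators bind the ends of the core in place of the regulatory particle. PSME1 (chr24:1122631-1125416), the alpha chain of PA28, had 27.5, 29.2, 30.7, 21.5 and 31.1 CPM on the HFr diet and 22.9, 26.5, 25.1, 25.8 and 19.8 CPM on chow. HFr replicate 4 lay among the chow animals and the other HFr animals lay above all of them, with a log2 fold change of 0.22 (SE 0.16, edgeR, unadjusted p = 0.2003). PSME2 (chr24:1129419-1132596), the beta chain, lies 4002 bases from PSME1 and had 112, 55.4, 95.6, 80.4 and 62.7 CPM on the HFr diet and 67.2, 64.4, 52.8, 105 and 79.0 CPM on chow. Its spread covered about the same range in both diets, and the log2 fold change was 0.14 (SE 0.23). The mean log2 ratio of PSME1 to PSME2 was -1.48 ± 0.50 (SD, n = 5) in HFr animals and -1.57 ± 0.42 (SD, n = 5) in chow animals, a difference of 0.08 with a 95% interval from -0.64 to 0.81 (two-sided exact permutation test, p = 0.738). The smallest p that this test allows is 0.00794.

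PSME4 (chr14:52999960-53108885), the large single-chain activator known for the degradation of acetylated histones, had 41.1, 43.1, 57.7, 36.4 and 47.1 CPM on the HFr diet and 37.2, 43.1, 57.0, 51.0 and 60.7 CPM on chow. The diets overlapped over most of their range, with a log2 fold change of -0.14 (SE 0.18). PSME3, the nuclear activator PA28 gamma, had 3, 7, 2, 3 and 7 counts in the HFr animals and 7, 2, 6, 1 and 2 in the chow animals. PSMF1, the inhibitor PI31, had 5, 5, 5, 17 and 14 counts in the HFr animals and 11, 12, 11, 1 and 4 in the chow animals. Both fell below the filter. Fitted without a filter, their log2 fold changes were 0.24 (SE 0.56) and 0.23 (SE 0.46), and a difference between the diets was not detectable at this depth.

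The 3 tested assembly chaperones of the core all had negative log2 fold changes, with a median of -0.29, and none had an unadjusted p under 0.05. The sign of PSMG3 turned positive in 3 other settings. It was at 0.012 with scaling by library size only and at 0.068 without chow replicate 5, and it was also positive without HFr replicate 5. PSMG1 (chr2:83102363-83113229), which starts alpha ring assembly together with PSMG2, had 7.91, 15.5, 10.1, 11.3 and 8.90 CPM on the HFr diet and 13.3, 13.4, 15.6, 12.1 and 12.9 CPM on chow. Of the HFr animals 4 lay below all chow animals and HFr replicate 2 lay among the highest, and the log2 fold change was -0.32 (SE 0.21, edgeR, unadjusted p = 0.143). Without HFr replicate 2 it was -0.49 (edgeR, unadjusted p = 0.0276), and without HFr replicate 1 it was -0.24. Over the 10 fits that leave out 1 animal the unadjusted edgeR p ranged from 0.0276 to 0.277. PSMG3 (chr28:20028092-20030922), with the highest normalized count of the chaperones, had 13.2, 14.4, 12.9, 10.4 and 10.1 CPM on the HFr diet and 13.9, 7.88, 11.2, 13.6 and 17.5 CPM on chow, with chow at both ends and a log2 fold change of -0.05 (SE 0.22). PSMG4 was not tested, with 1 to 10 counts per animal. PSMC3IP, the name match, had 1 to 16 counts per animal and was not tested.

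Single animals stood low or high for many of the genes. Chow replicate 1 and HFr replicate 4 were each the lowest animal for 9 of the 37 genes, where they were the lowest for 9.79% and 12.5% of all tested transcripts. Chow replicates 3, 4 and 5 were the highest animal for 8, 7 and 6 of the 37 genes, and for 10.8%, 10.5% and 14.0% of all tested transcripts. Chow replicate 1, the lowest animal in the core sum, also had the lowest sum of all 37 genes, at 970 CPM. It was lowest in the activators and chaperones too, at 164 CPM. Its regulatory particle sum, 433 CPM, was above that of HFr replicate 2 only. PSMD6 was the 1 gene for which it was the highest animal.

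**Figure D4:**
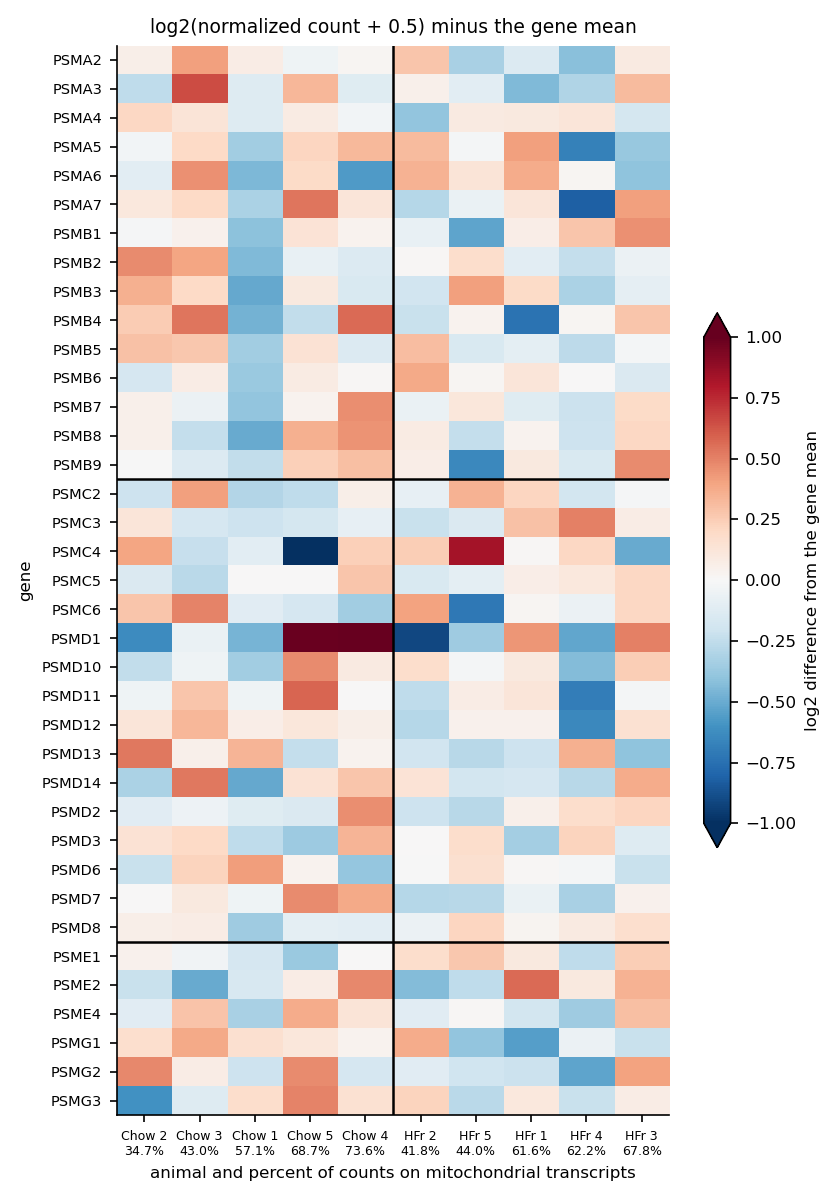
Log2(normalized count + 0.5) minus the mean of each gene over the 10 animals (color, saturated at 1 in either direction) for the 37 tested genes (rows, split into core, regulatory particle, and activators and chaperones) and 10 animals (columns, by diet and then by the mitochondrial percent of counts given under each). PSMD1 is the row with the strongest contrast, high in chow replicates 4 and 5, and no block of genes separates the diets.

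Because the mitochondrial percent differed widely between animals, its relation to each gene was examined in a fit with diet and mitochondrial percent as terms, which was added after the values were seen. None of the 37 genes had an adjusted p under 0.05 for the mitochondrial term, which 0.73% of all tested transcripts had, 0.528% with a positive term. With mitochondrial transcripts left out of the table, it was 0 of the 37 and 0.505% of the transcripts tested. The smallest adjusted p was that of PSMD1. Its normalized count was higher by 0.41 on the log2 scale for each 10 percentage points (SE 0.09, edgeR, adjusted p = 0.0644). The adjusted p was 0.0391 without chow replicate 1 and 0.0283 without HFr replicate 4, and over all 10 fits that leave out 1 animal it ranged from 0.0283 to 0.213. The counts of PSMD1 before normalization were 93, 60, 91, 80 and 101 in the HFr animals and 81, 75, 134, 103 and 112 in the chow animals, a narrower spread than that of its normalized counts. PSME2 was higher by 0.23 for each 10 percentage points (SE 0.07, edgeR, adjusted p = 0.171), and PSMB2, a constitutive beta subunit gene, changed by -0.15 (SE 0.06, edgeR, adjusted p = 0.340). In the same fit the log2 fold change of the diet was -0.34 for PSMD1, 0.13 for PSME2 and -0.37 for PSMD7. The part of RNA quality or cell makeup in these values was not tested.

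**Figure D5:**
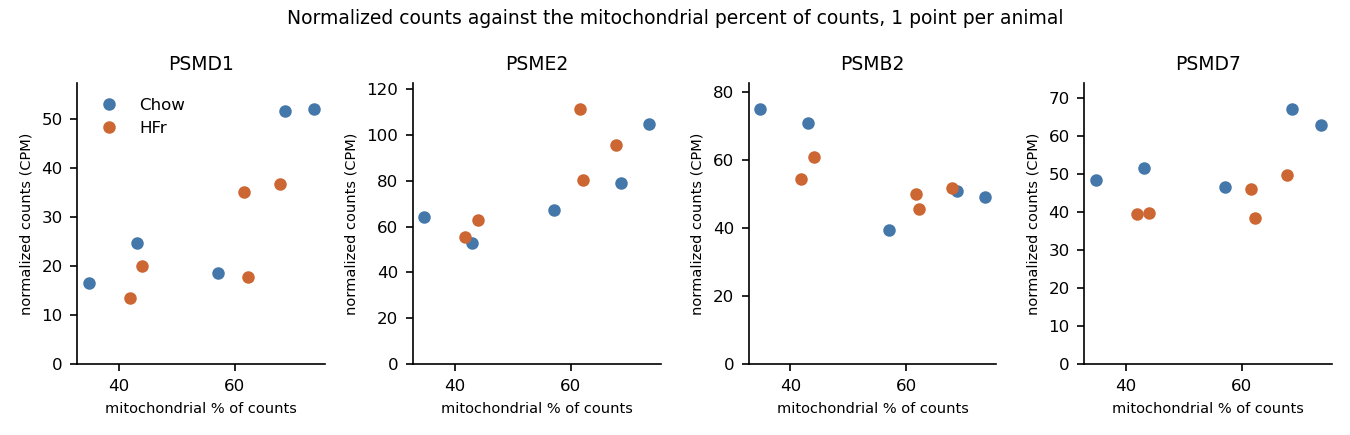
Normalized counts (CPM, y axis from 0) of PSMD1, PSME2, PSMB2 and PSMD7 against the percent of counts on mitochondrial transcripts (x axis), with 1 point per animal colored by diet. PSMD1 and PSME2 are higher toward the right and PSMB2 lower, with adjusted p-values of 0.0644, 0.171 and 0.340 for the mitochondrial term.

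Genes that work with the proteasome were examined next to its subunits. Of 34 symbols of ubiquitin activation, shuttling, assembly and transcriptional control, 27 were in the table and 18 were tested, 12 with a negative and 6 with a positive log2 fold change, with a median log2 fold change of -0.08. None had an adjusted p under 0.05 and 1 of the 18 had an unadjusted p under 0.05, as did 4.29% of all tested transcripts. This gene was ZFAND5, which encodes a zinc finger protein that binds ubiquitin and stimulates the proteasome. ZFAND5 had 67.8, 64.8, 60.9, 38.9 and 45.5 CPM on the HFr diet and 97.3, 77.7, 88.0, 56.1 and 116 CPM on chow. Chow replicate 4 lay among the HFr animals and the other chow animals lay above all of them, with a log2 fold change of -0.65 (SE 0.22, edgeR, unadjusted p = 0.0104, adjusted p = 0.9996). POMP, the maturation chaperone of the core, had a log2 fold change of -0.12 (SE 0.17), with 41.8 to 60.9 CPM on the HFr diet and 44.9 to 66.6 CPM on chow. NFE2L1, the transcription factor of the subunit genes, had a log2 fold change of -0.21 (SE 0.32), with 8.29 to 24.4 CPM on the HFr diet and 11.5 to 35.9 CPM on chow.

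The inducible subunits were read beside 16 symbols of interferon signaling and antigen presentation, of which 15 were in the table and 12 were tested. Their log2 fold changes were positive for 6 and negative for 6, with a median log2 fold change of -0.02, and none had an adjusted p under 0.05. CXCL9, an interferon-induced chemokine, was the 1 gene of the 12 with an unadjusted p under 0.05, which 4.29% of all tested transcripts had. It had 12.8, 6.28, 19.4, 5.998 and 3.36 CPM on the HFr diet and 1.5996, 4.82, 1.65, 4.04 and 6.89 CPM on chow, with a log2 fold change of 1.36 (SE 0.51, edgeR, unadjusted p = 0.0181). HFr replicate 3, the highest for CXCL9, was also the animal with the highest PSMB9 to PSMB6 ratio. Across the same animals the summed level of the list was 848 to 1489 CPM on the HFr diet and 1051 to 1728 CPM on chow. Most of this sum was B2M, with 494 to 1118 CPM on the HFr diet and 533 to 1143 CPM on chow.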

How the data were processed

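RNA-Seq libraries from liver biopsies of 10 animals were analysed, 5 per diet, grouped by the labels. The authors sequenced 100 base paired-end stranded libraries, aligned the reads to ChlSab1.1 with Ensembl release 93 and derived estimated counts per transcript by expectation-maximization in Partek Flow. The submitters' processing notes name CASAVA 1.8 and STAR 2.5.3a. The deposited signal values are these estimated counts after the authors removed transcripts without reads and applied TMM scaling, and they were used only for an equal-variance test. Coordinates are those of the deposited table, counted from 1, with the listed stop excluded.

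Of the 28078 transcripts, 7948 were kept by filterByExpr (a minimum count of 10 and a total of 15) after rounding of the estimated counts. Diets were compared with edgeR 4.0.16 (R 4.3.3, quasi-likelihood, TMM, diet as the only term) on the whole table, with Benjamini-Hochberg adjustment and a threshold of 0.05. The standard errors of fold changes were derived from the edgeR estimates and the F statistics of the quasi-likelihood test. The 95% intervals were then calculated from these standard errors with a t quantile. For ratios of 2 genes, exact permutation tests (two-sided) over animals were used. DESeq2 1.42.0, limma 3.58.1 and other settings were alternatives, and the scripts were tested on simulated data.

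The members, gene lists and tests were chosen with earlier results of these data known. Members named with values for each animal were the catalytic subunits, the activators and inhibitor, the gene with the highest normalized count and that with the smallest unadjusted p in each group of subunits, and any member with an unadjusted p under 0.05. From the other lists, the gene with the smallest unadjusted p in each list, POMP and NFE2L1 were named. PSMA6, PSMD6, PSMD8, PSMD11 to PSMD14, PSMB2, TAP1, the scarce leukocyte markers and the untested members beyond this rule were named after their values were seen. Nothing in the sources states that the samples were more than single biopsies, so p-values cover the spread between animals in 1 biopsy each. The 95% intervals of fold changes and ratios include the spread between animals, whereas the floor of 3 counts covers counting error only.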

Additional observations from a re-analysis of the deposited data

Results flagged for a closer look

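Within 1 diet of 5 animals, 4 of the 80 sets of values examined (37 genes and 3 ratios in each diet) held an animal whose distance to its nearest neighbor was large against the whole range. By chance about 1 in 20 sets would be marked in this way. PSMA2 was 48.6 CPM in chow replicate 3, where the other chow animals had 35.4 to 38.4 CPM. PSMD12 was 47.1 CPM in the same animal, against 38.9 to 40.7 CPM. PSMD13, with 8 to 30 counts per animal, was 5.78 CPM in HFr replicate 4, against 3.23 to 3.81 CPM. PSMD2 was 118 CPM in chow replicate 4, against 77.2 to 82.5 CPM.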

How the results depend on the processing

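No proteasome gene had an adjusted p under 0.05 in any of the 22 alternatives. The number with an unadjusted p under 0.05, 1 as reported, was 0 with library size only, with no filter on low counts and with the replicate block, and ranged from 0 to 1 when 1 animal was left out. It was 0 without chow replicates 4 or 5 or HFr replicates 4 or 5, and without HFr replicate 2 the gene was PSMG1 in place of PSMD7. Over all tested transcripts the count was 341 of 7948, 123 with library size only, 756 of 16066 with no filter and 271 with the replicate block. The replicate numbers did not pair the animals (correlations of same-numbered animals -0.28 to 0.10, and 1 of 10 animals correlated best with its own number). Members with a negative log2 fold change numbered 21 to 28 over all settings. With all animals kept, the number was 22 with the equal-variance test on the deposited values, 25 with library size only, upper quartile scaling, limma-trend or the mitochondrial covariate, 24 of the 35 members with at least 10 counts in every animal, and 26 as reported and in the other settings. Among the members named by the rule, PSMG3 turned to 0.012 with library size only and PSMD2 to 0.020 with the equal-variance test, and the regulatory particle median turned to 0.0065 with the latter. With the equal-variance test the median over all tested transcripts was 0.038, and 43.4% of them were negative. With 1 animal left out, the differences in log2 ratio ranged from -0.081 to 0.19 for PSMB8/PSMB5, from -0.39 to -0.070 for PSMB9/PSMB6 and from -0.060 to 0.21 for PSME1/PSME2. Log2 fold changes that crossed 0 ranged from -0.15 to 0.062 for PSMB7, -0.19 to 0.036 for PSMB8, -0.18 to 0.11 for PSMB9, -0.010 to 0.13 for PSMC5, -0.050 to 0.17 for PSMD10, -0.087 to 0.11 for PSMD2, -0.0053 to 0.29 for PSME2 and -0.20 to 0.068 for PSMG3. Without changing sign, PSMA2 ranged from -0.31 to -0.11, PSMB4 from -0.40 to -0.16, PSMB5 from -0.20 (without HFr replicate 2) to -0.034 (without chow replicate 2), PSMB6 from 0.073 to 0.20 and PSME4 from -0.25 (without HFr replicate 3) to -0.070 (without chow replicate 5). The median of activators and other genes ranged from -0.19 (without chow replicate 2) to -0.0010 (without chow replicate 5). Pseudocounts of 0 or 1 CPM, counts summed by gene and the replicate block left the sign of all 3 ratios and their side of the threshold. The causes were not tested. PSMB9 had 19 to 38 counts per animal and PSMD13 had 8 to 30.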
